A study of Mus musculus with 4 samples.

Results

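The enzymes that break down tyrosine were examined in mouse colon as 5 genes in the order of their steps, Tat, Hpd, Hgd, Gstz1 and Fah. They were taken by gene symbol from the authors' deposited comparison table, and each had 1 probe set (probes along a gene's exons read as 1 value), so that they make up 5 of the 30861 gene symbols on the array. The genes were chosen by their maltodextrin-minus-control differences in these same 4 arrays as well as by their place in the pathway, so the values below describe them and no test of them is offered. RNA came from colon of Balb/c mice after 45 days, and each sample was read on 1 GeneChip Mouse Gene 2.0 ST array. The maltodextrin group had 5% maltodextrin, a soluble starch hydrolysate common in processed food, in the drinking water (2 arrays, numbered 3 and 4). The control group had drinking water without it (2 arrays, numbered 1 and 2). The labels name no other treatment or allele, and leave unsaid whether each array stands for its own mouse. Errors and p-values therefore cover sample-to-sample spread that may be purely technical.

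Phenylalanine is turned into tyrosine with the cofactor tetrahydrobiopterin, and tyrosine is then degraded in steps that end in fumarate and acetoacetate, which feed the citric acid cycle and ketone body use. The pathway is best known from liver and kidney. In people, loss of FAH or HPD causes forms of tyrosinaemia and loss of HGD causes alkaptonuria. The drug nitisinone acts by inhibiting HPD.

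Hpd was 6.47-fold higher on the maltodextrin arrays, a log2 difference of 2.69 (SE 0.19). Gstz1 and Fah, the enzymes of the last steps, were higher by 0.83 (SE 0.19) and 1.10 (SE 0.33). Tat, at the entry, had overlapping groups, and Hgd, which lies between Hpd and Gstz1, stayed near background on all 4 arrays. In whole tissue, a change in the number of cells of a type and a change in RNA per cell cannot be told apart.

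The promoters of the 5 genes are shown because these genes, neighbours in 1 pathway, did not share 1 pattern over the arrays. Each sequence is the RefSeq window in GRCm38.p6, a C57BL/6J reference and not the Balb/c genome, from 250 bases before to 50 bases after a gene's start, on the gene's own strand. Capitals mark matches on either strand to 8 short motifs, and no matches overlapped in these windows. The motifs were the GC box as GGGCGG, the CCAAT box by its name, the TATA box as TATAAA, the half-site of the glucocorticoid receptor as AGAACA, the half-site of other nuclear receptors as AGGTCA, the site of FOXA factors as TGTTTAC, one E-box as CAGCTG and a further E-box as CAGGTG. Hpd is on the minus strand at chr5:123182674-123182973, Fah on the minus strand at chr7:84605893-84606192, Gstz1 on the plus strand at chr12:87146915-87147214, Tat on the plus strand at chr8:109990186-109990485 and Hgd on the plus strand at chr16:37579903-37580202.
Hpd: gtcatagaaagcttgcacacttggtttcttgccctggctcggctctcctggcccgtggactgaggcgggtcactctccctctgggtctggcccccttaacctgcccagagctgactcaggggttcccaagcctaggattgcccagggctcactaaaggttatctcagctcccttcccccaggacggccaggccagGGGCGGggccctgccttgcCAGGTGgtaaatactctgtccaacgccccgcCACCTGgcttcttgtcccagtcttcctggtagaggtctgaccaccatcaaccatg
Fah: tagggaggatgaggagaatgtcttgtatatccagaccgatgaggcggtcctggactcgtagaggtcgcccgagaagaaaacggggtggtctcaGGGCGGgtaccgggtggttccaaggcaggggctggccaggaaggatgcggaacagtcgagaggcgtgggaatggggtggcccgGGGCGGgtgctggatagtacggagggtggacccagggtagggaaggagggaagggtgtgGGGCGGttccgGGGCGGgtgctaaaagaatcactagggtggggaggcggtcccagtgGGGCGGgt
Gstz1: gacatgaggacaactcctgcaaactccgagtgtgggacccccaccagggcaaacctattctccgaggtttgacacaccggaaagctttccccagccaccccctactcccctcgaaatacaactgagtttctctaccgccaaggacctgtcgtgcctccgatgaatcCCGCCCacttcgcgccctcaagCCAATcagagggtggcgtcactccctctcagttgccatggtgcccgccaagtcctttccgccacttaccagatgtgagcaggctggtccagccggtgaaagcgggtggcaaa
Tat: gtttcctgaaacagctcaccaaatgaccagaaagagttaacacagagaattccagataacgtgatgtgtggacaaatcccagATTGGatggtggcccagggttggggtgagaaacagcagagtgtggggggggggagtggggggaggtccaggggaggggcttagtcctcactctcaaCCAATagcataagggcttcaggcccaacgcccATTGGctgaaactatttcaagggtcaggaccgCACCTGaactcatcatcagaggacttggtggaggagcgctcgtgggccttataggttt
Hgd: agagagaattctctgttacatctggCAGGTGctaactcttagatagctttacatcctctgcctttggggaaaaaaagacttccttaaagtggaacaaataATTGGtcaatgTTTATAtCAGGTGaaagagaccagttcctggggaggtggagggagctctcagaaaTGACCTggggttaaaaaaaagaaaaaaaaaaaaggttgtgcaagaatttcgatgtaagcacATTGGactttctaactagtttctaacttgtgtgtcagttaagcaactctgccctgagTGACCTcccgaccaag

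The windows differed in base composition. GC content was 61.3% for Hpd, 64.3% for Fah, 59.0% for Gstz1, 53.7% for Tat and 41.0% for Hgd, against a median of 52.7% over 32851 windows. Fah had 19 CG dinucleotides and Gstz1 15, against 7 in Hpd, 5 in Tat and 2 in Hgd and a median of 7. The Fah window held 5 GC boxes, a number reached by 2.71% of all windows, while 35.7% held at least 1. In the Hpd window there was 1 GC box, from base -55 to -50, and the E-box CAGGTG occurred 2 times, from -36 to -31 and from -5 to 1, a number that 2.88% of windows reached. Hgd also had 2 such E-boxes, with 2 nuclear receptor half-sites (1.81% of windows), 2 CCAAT matches (11.7%) and the only TATAAA match of the 5 windows (13.6%). Tat had 3 CCAAT matches (3.37%) and 1 CAGGTG (20.2%). The Gstz1 window held 1 GC box and 1 CCAAT (37.4%). A further RefSeq start of Gstz1, at chr12:87157353-87157652, held 1 match each to the GC box, CCAAT and CAGCTG (16.3%). The motifs listed for the glucocorticoid receptor and FOXA factors, present in 19% and 3.65% of all windows, had no match in these letters. The Tat and Hgd windows surround a RefSeq start that lies inside the gene span given below, not at its first base. These matches describe the reference sequence.

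The value table holds log2 intensities of 41345 probe sets, 32202 of them with a gene symbol, between 1.91 and 14.37. Array medians lay between 5.20 and 5.35. As a guide to background, the 95th percentile of the mean level of 1480 olfactory and vomeronasal receptor probe sets, genes of the nasal epithelium, was 5.92. All 10 defining markers of colon epithelium, among them Epcam, Cdx2 and Muc2, were above it. The arrays differed in some markers of other tissues and of gut position, and whether their tissue makeup differed was not tested. Pancreatic acinar markers were high on control 2, with a median of 9.11 against 4.50 to 4.68 on the other arrays. Albumin was 9.38 on maltodextrin 4 and 5.47 to 5.88 elsewhere. The median of the 18 hepatocyte markers was 5.22 on maltodextrin 4 and 4.89 to 5.01 elsewhere. Hoxb13 and Hoxd13, genes of the distal gut, were 3.78 and 3.97 on maltodextrin 3 and at least 8.18 on each other array. The summed intensity of 12 proximal gut markers was 4472 on maltodextrin 3 and 1301 to 1804 elsewhere. Their list median was 5.36 on maltodextrin 3 and 5.24 to 5.41 elsewhere. Over all named probe sets limma passed 0 at an adjusted p of 0.05 (the smallest was 0.191), the methods' t-test also 0, while 4698 had an unadjusted p under 0.05 by limma. A nominal criterion is therefore used, namely a change of 1.5-fold or more whose unadjusted limma p lies under 0.05. It was met by 12.1% of the 32202 probe sets, 8.51% higher and 3.56% lower.

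Tat, tyrosine aminotransferase, takes the amino group off tyrosine in the entry step, and in liver is a well-known glucocorticoid-induced gene. Like the other 4, it is protein-coding, and it lies on chromosome 8 from 109986078 to 109999804. Its log2 intensity was 8.48 and 8.75 on maltodextrin 3 and 4, and 7.98 and 9.67 on control 1 and 2. Both maltodextrin values lay between the controls, which stood 1.69 apart. The difference was -0.21 (SE 0.59). It was -1.06 without control 1 and 0.63 without control 2, so its direction turned on which control was kept, and each of those values met the nominal criterion defined above. Control 2, the higher one, is also the array with pancreatic acinar transcripts (summed intensity 1245 and 2787 on maltodextrin 3 and 4, and 1261 and 11953 on control 1 and 2), and their part in the Tat value was not tested.

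Hpd, 4-hydroxyphenylpyruvate dioxygenase, turns 4-hydroxyphenylpyruvate into homogentisate. The gene lies on chromosome 5 from 123171807 to 123182723. Its log2 intensity was 10.41 and 10.47 on maltodextrin 3 and 4, and 7.88 and 7.61 on control 1 and 2. The groups did not overlap, with 2.53 between the lowest maltodextrin and the highest control value, as was true of 50.4% of all probe sets in either direction and of 25.6% with maltodextrin above. Group means were 10.44 ± 0.04 (SD, n = 2) in maltodextrin and 7.74 ± 0.19 (SD, n = 2) in control. Among 32202 probe sets the difference ranked 67 from the top. With any 1 array left out it lay between 2.56 and 2.83. The maltodextrin arrays differed by 0.05 for Hpd, and the controls by 0.27.

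Hgd, homogentisate 1,2-dioxygenase, opens the aromatic ring of homogentisate. It lies on chromosome 16 from 37579742 to 37632026. Its log2 intensity was 4.24 and 4.27 on maltodextrin 3 and 4, and 4.09 and 4.27 on control 1 and 2. The groups overlapped and every value lay under the 5.92 of the receptor guide. The difference was 0.08 (SE 0.18), and -0.01 without control 1. At this signal over background a difference in Hgd was not detectable.

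Gstz1, glutathione transferase zeta, isomerises maleylacetoacetate to fumarylacetoacetate with glutathione as cofactor. It lies on chromosome 12 from 87147161 to 87164723. Its log2 intensity was 8.59 and 8.49 on maltodextrin 3 and 4, and 7.56 and 7.85 on control 1 and 2. Both maltodextrin values lay above both controls, by at least 0.64. The fold was 1.78, and the difference lay between 0.69 and 0.98 with any 1 array left out.

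Fah, fumarylacetoacetate hydrolase, splits fumarylacetoacetate into fumarate and acetoacetate in the last step. It lies on chromosome 7 from 84585159 to 84605942. Its log2 intensity was 7.77 and 7.41 on maltodextrin 3 and 4, and 6.87 and 6.10 on control 1 and 2. The groups did not overlap, with a gap of 0.54, though the controls stood 0.77 apart and control 2 lay close to the receptor guide. Fah was 2.15-fold higher, and its difference was 1.49 without control 1 and 0.72 without control 2.

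**Figure D1:**
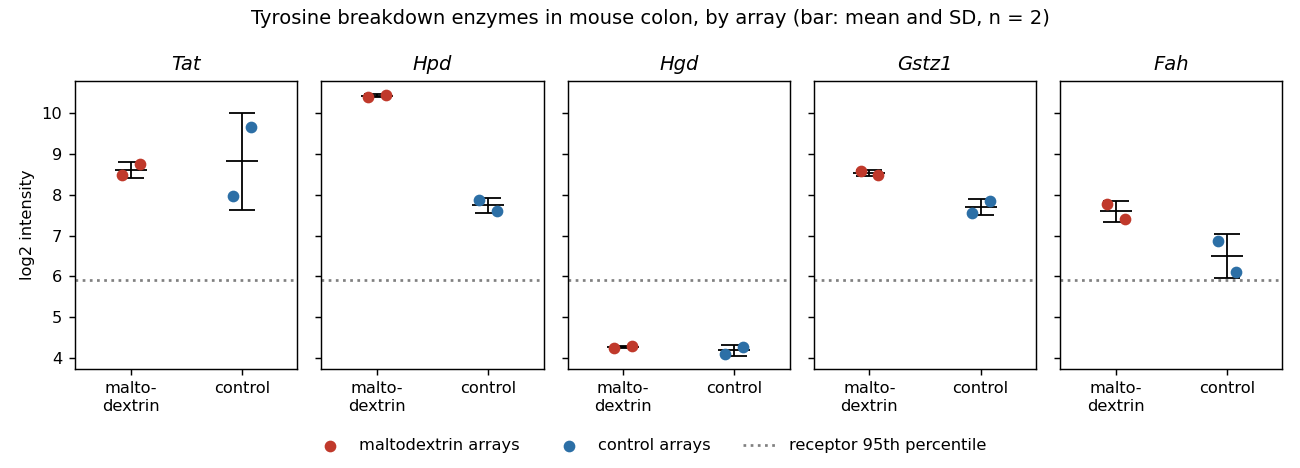
Log2 intensity of each enzyme gene on the 2 maltodextrin arrays (red) and the 2 control arrays (blue), with the group mean and SD as bars and the receptor 95th percentile (5.92) as a dotted line. Hpd, Gstz1 and Fah have both red points above both blue points, Tat has its red points between the blue ones, and Hgd lies under the line; heights of different genes are not comparable, since each probe set has its own response.

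Of the 5 genes, 3 met the nominal criterion as higher (Hpd, Gstz1 and Fah) and 0 as lower, beside 8.51% and 3.56% of all probe sets, and beside 14.7% and 3.44% (18.1% in either direction) of those with a mean log2 of at least 5. Since the genes were chosen with this contrast known, nothing is read from that count. The same holds for the counts of settings below, because every setting draws on the arrays by which the genes were chosen. In the authors' deposited table, Hpd and Gstz1 pass a change of 1.5-fold whose unadjusted p is under 0.05, and Fah, with a ratio of 2.15, does not. The median difference of the 5 was 0.83, beside -0.04 over all probe sets tested and 0.14 over those with a mean log2 of at least 5. Hpd met the criterion in all 13 settings tried at a fold of 1.5, Gstz1 in 11 and Fah in 11. Without maltodextrin 3 neither Gstz1 (0.78) nor Fah (0.92) met it, and without maltodextrin 4 Gstz1 (0.88) did not.

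**Figure D2:**
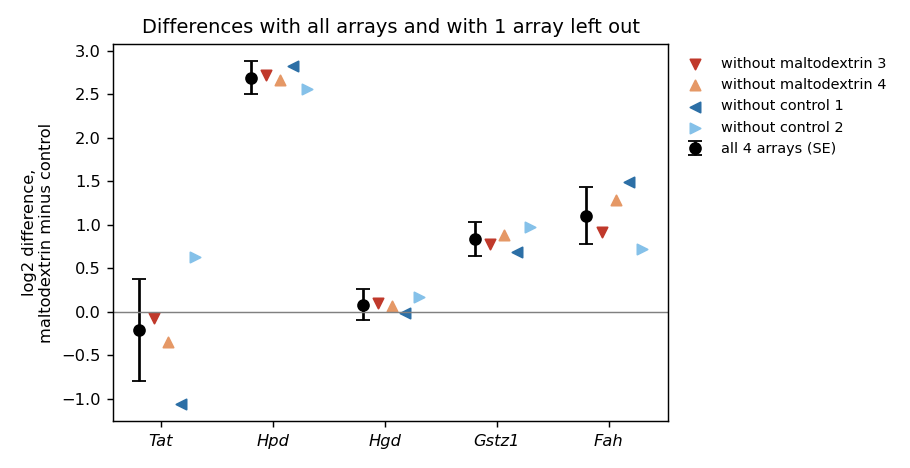
Log2 difference, maltodextrin minus control, of each enzyme gene with all 4 arrays (black, with SE) and with each array left out in turn (coloured triangles). The 4 values of Hpd lie between 2.56 and 2.83, whereas those of Tat run from -1.06 to 0.63.

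Before tyrosine stands the supply of tetrahydrobiopterin, and 5 of the 8 genes listed for its synthesis, recycling and use lay above the receptor guide. Pcbd1, which takes part in recycling tetrahydrobiopterin, was 10.28 and 10.01 on maltodextrin 3 and 4, and 8.80 and 7.77 on control 1 and 2. The groups did not overlap, and the difference was 1.86 (SE 0.39), or 3.64-fold. Gch1, the enzyme that starts tetrahydrobiopterin synthesis, was 5.51 and 5.27 on maltodextrin 3 and 4, and 5.84 and 6.48 on control 1 and 2, lower on both maltodextrin arrays but under the guide on average (difference -0.77, SE 0.28, and -0.45 without control 2). Gch1 was not called lower in 9 of the 13 alternative settings, among them median centring, renewed quantile normalization, the methods' t-test and each setting without maltodextrin 3, maltodextrin 4 or control 2. These were 1 higher and 1 lower of 8 genes, beside 8.7% and 3.38% of all genes. The other 6 did not meet the criterion, with Qdpr, the dihydropteridine reductase, at 0.56 (SE 0.18). The list median was 0.37.

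Enzymes that act beside the pathway on aromatic amino acids gave 2 higher and 0 lower of 13. Tph1, the tryptophan hydroxylase of serotonin-making enterochromaffin cells, was 7.43 and 6.53 on maltodextrin 3 and 4, and 5.61 and 5.49 on control 1 and 2 (difference 1.43, SE 0.34). Hpdl, a relative of Hpd in mitochondria, was 6.23 and 6.16 on maltodextrin 3 and 4, and 5.37 and 5.65 on control 1 and 2. Its groups did not overlap (difference 0.69, SE 0.19), though its mean was under the receptor guide. The general aspartate aminotransferases, which also accept aromatic amino acids, differed by 0.18 (SE 0.20) for Got1 and 0.52 (SE 0.28) for Got2. Mif, a cytokine that can tautomerise phenylpyruvate in the test tube, differed by -0.23 (SE 0.21). The list median was 0.12, and Il4i1 was not analysed here.

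After the pathway, the list for use of fumarate and acetoacetate, which also holds relatives of Fah, gave 1 higher and 0 lower of 13. Beside it stand 8.7% and 3.38% of all genes, and 15% and 3.14% of those averaging 5 or more on the log2 scale. The 1 higher gene was Fahd1, a mitochondrial member of the Fah family, listed for that relation and not for use of either product. Fahd1 was 7.23 and 7.10 on maltodextrin 3 and 4, and 6.48 and 6.13 on control 1 and 2. The groups did not overlap, with a difference of 0.86 (SE 0.21). Fh1, fumarate hydratase, differed by 0.30 (SE 0.19), Acat1, a mitochondrial thiolase, by -0.06 (SE 0.37), and Oxct1, which activates acetoacetate for oxidation, by -0.63 (SE 0.36). The list median was 0.15.

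Over these 3 lists together, 4 of 34 genes met the nominal criterion as higher and 1 as lower (11.8% and 2.94%), beside 8.7% and 3.38% of all genes taken with 1 probe set each. The shares are near that background. The count of 5 was 2 without maltodextrin 3, 2 without maltodextrin 4, 8 without control 1 and 5 without control 2. By limma, 0 of the 34 reached an adjusted p under 0.05 (the lowest was 0.249).

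**Figure D3:**
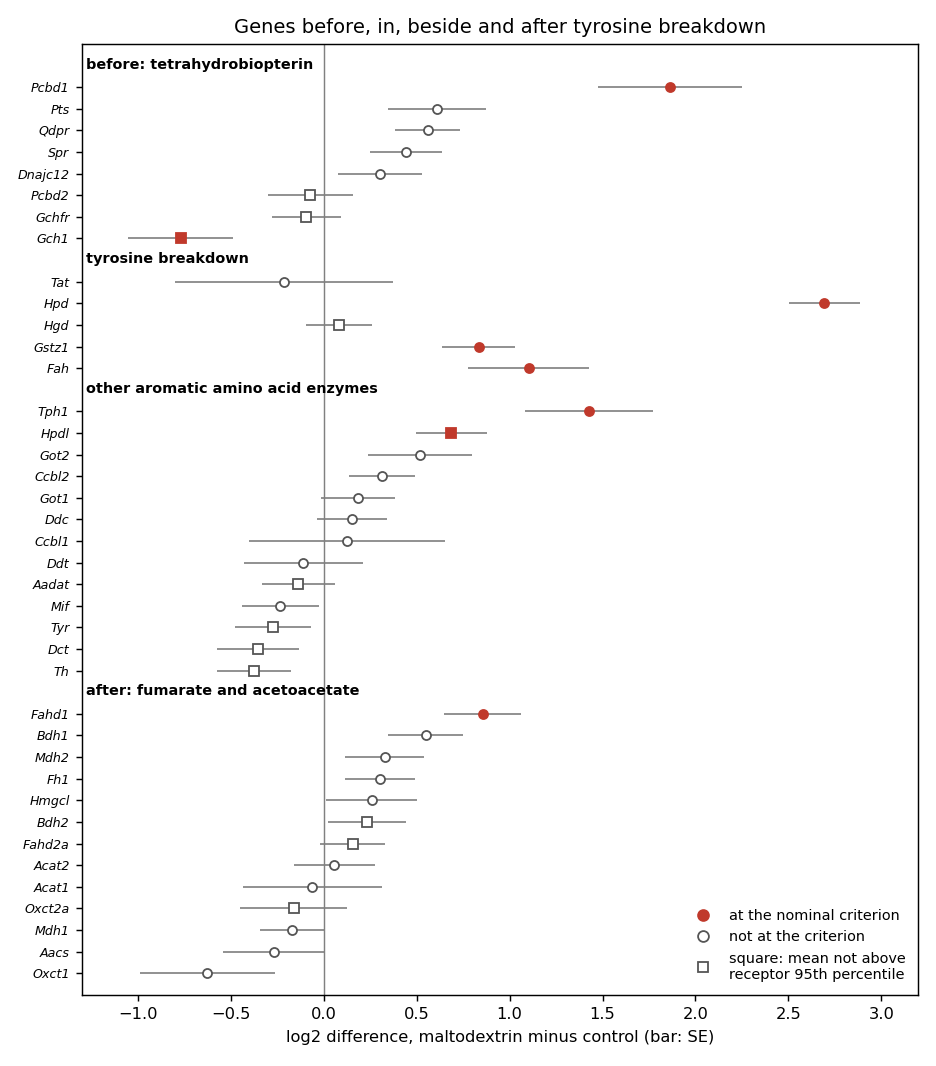
Log2 difference, maltodextrin minus control, with SE, for genes before, in, beside and after tyrosine breakdown; filled red symbols meet the nominal criterion and squares mark genes whose mean is not above the receptor 95th percentile. Hpd at 2.69 and Pcbd1 at 1.86 lie farthest to the right, while Hgd is a square near 0.

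The breakdown of other amino acids was set beside that of tyrosine. Of 68 genes, 17 met the nominal criterion as higher and 0 as lower (25%, beside 8.7% of all genes with 3.38% lower, and 15% and 3.14% of genes with a mean log2 of at least 5), with a median of 0.26 beside -0.03 over all genes. The count was 4 without maltodextrin 3, 8 without maltodextrin 4, 18 without control 1 (2 of them lower) and 18 without control 2, and 11 with quantile normalization applied again. By limma 0 of them passed an adjusted p of 0.05, the lowest being 0.232.

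Branched-chain amino acid genes, which degrade leucine, isoleucine and valine in mitochondria, gave 8 higher of 22 with a median of 0.54. Beside them stand 8.7% higher among all genes and 15% among those averaging 5 or more on the log2 scale. Of the 22, 20 had a difference above 0. Probe sets at that level already had a median of 0.14, and the share of all genes above 0 is not given here. Mccc2, a subunit of methylcrotonyl-CoA carboxylase, was higher by 0.89 (SE 0.20), Auh, the next enzyme of leucine breakdown, by 0.83 (SE 0.18), Bcat2, the mitochondrial aminotransferase, by 0.81 (SE 0.21), and Bckdhb, a subunit of the branched-chain keto acid dehydrogenase, by 0.79 (SE 0.20). Genes for the remaining amino acids gave 7 higher of 33, beside the same 8.7% and 15%, with a median of 0.27. Gpt2, the mitochondrial alanine aminotransferase, was higher by 1.19 (SE 0.21), Shmt2, mitochondrial serine hydroxymethyltransferase, by 2.01-fold (SE 0.17 on the log2 scale), Cbs, cystathionine beta-synthase, by 0.90 (SE 0.19), and Gcdh, glutaryl-CoA dehydrogenase of lysine and tryptophan breakdown, by 0.82 (SE 0.19). Of the 9 tryptophan genes 1 was higher, Afmid, kynurenine formamidase, by 1.14 (SE 0.23), and the median was -0.04. Tdo2, the liver tryptophan dioxygenase, lay under the receptor guide, at 3.99 and 3.64 on maltodextrin 3 and 4, and 3.89 and 3.64 on control 1 and 2. Of the 4 histidine genes 1 was higher, Hal, histidine ammonia-lyase, by 0.82 (SE 0.30), or by 0.50 without maltodextrin 4, with a median of -0.02.

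**Figure D4:**
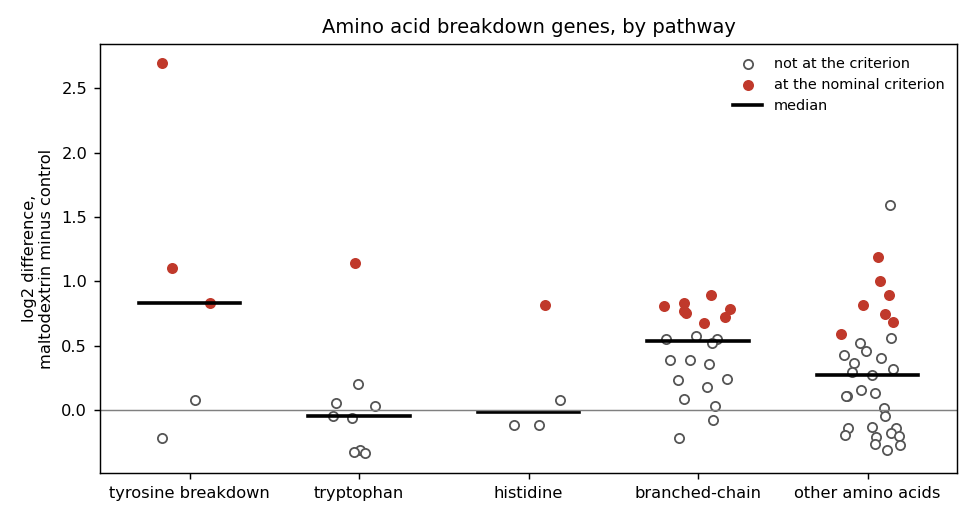
Log2 difference, maltodextrin minus control, of each gene in 5 amino acid breakdown lists, with 1 point per gene, spread sideways for legibility. Filled points meet the nominal criterion, and the black line is the list median. The medians are 0.83 for tyrosine, -0.04 for tryptophan, -0.02 for histidine, 0.54 for branched-chain and 0.27 for the other amino acids.

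Hepatocytes are the cells best known for this pathway. Their markers gave 0 higher and 0 lower of 18, beside 8.7% and 3.38% of all genes, so little can be read from that count. Of the 18, 13 were not above the receptor guide, among them Tdo2 and Fga, a fibrinogen chain. The other 5, Alb (albumin), Trf, Ttr, Cps1 and Cyp2e1, had means above it. Ttr was 7.59 and 9.88 on maltodextrin 3 and 4, and 8.31 and 9.29 on control 1 and 2. Cyp2e1 was 9.11 and 7.23, and 8.94 and 9.55, in that order. The summed intensity of all 18 was 1468 and 2761 on maltodextrin 3 and 4, and 1573 and 2258 on control 1 and 2. The part of such cells in the enzyme values was not tested.

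Goblet cells are the mucus-secreting cells of the epithelium. Of their 12 markers, 9 had both maltodextrin arrays above both controls, as had 25.6% of all probe sets. The nominal criterion was met as higher by 7 and as lower by 0, beside 8.7% and 3.38% of all genes and 15% and 3.14% of those with a mean log2 of at least 5. All 12 differences were above 0, with a median of 0.72. Their summed intensity was 54916 and 65813 on maltodextrin 3 and 4, and 46292 and 37631 on control 1 and 2, and none lay under the receptor guide. Their part in the enzyme values was not tested. Of the macrophage markers 6 of 9 met the criterion as higher, beside the same 8.7% and 15%, with summed intensities of 4298 and 6061 on maltodextrin 3 and 4, and 3871 and 4032 on control 1 and 2. Cd163, a scavenger receptor of resident macrophages, was the 1 marker under the guide, and the part of these cells was likewise not tested. Among the other lists, absorptive colonocyte markers gave 1 higher of 12, proximal gut markers 1 higher of 12, acinar markers 1 lower of 15, and colon epithelium (10), smooth muscle (8), adipocyte (6) and distal gut markers (7) gave 0 in either direction. All 8 smooth muscle markers nevertheless had a difference below 0, with a median of -0.29, beside -0.03 over all genes. So had all 6 adipocyte markers, with a median of -0.95, and 14 of the 15 acinar markers, with a median of -1.98. The share of all genes on either side of 0 is not given here, for these counts or for that of the goblet cell markers. The acinar difference came mostly from control 2. Acinar list medians were 4.68 and 4.50 on maltodextrin 3 and 4, and 4.61 and 9.11 on control 1 and 2. Adipocyte list medians were 6.28 and 5.17, and 6.25 and 7.86, in that order.

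Transcription factors known for liver genes gave 1 higher and 0 lower of 13, with a median of 0.38. Among all genes 8.7% met the criterion as higher, and 15% among those averaging 5 or more on the log2 scale. Foxa3, a forkhead factor, was 8.72 and 9.04 on maltodextrin 3 and 4, and 7.91 and 8.07 on control 1 and 2. The groups did not overlap, and the difference was 0.90 (SE 0.20). Hnf4a, a nuclear receptor of the gut epithelium, differed by 0.04 (SE 0.18), and Nr3c1, the glucocorticoid receptor, by 0.47 (SE 0.21). Beside those 8.7% and 15%, genes induced by corticosteroids, making them or acting on them gave 3 higher of 13 with a median of 0.13. They were Hsd11b2, which inactivates glucocorticoids, at 1.93 (SE 0.31), Scnn1b, a sodium channel subunit, at 1.77 (SE 0.27), and Zbtb16, a zinc finger factor, at 1.06 (SE 0.19). The widely used glucocorticoid targets Fkbp5 and Tsc22d3 differed by 0.04 (SE 0.39) and 0.13 (SE 0.22).

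The genes whose values were most like those of each enzyme were found by the distance between log2 intensities over the 4 arrays, after each gene's own mean was taken off, among 13419 genes with a mean log2 of at least 5 (13420 for Hgd, itself below that level). Predicted genes, clone names, small RNAs, odorant and pheromone receptors and immune receptor segments were left out of these candidates. For Hpd the nearest was Creb3l4, a bZIP transcription factor anchored in the endoplasmic reticulum and itself one of the goblet cell markers above, at a distance of 0.28, with 9.63 and 9.65 on maltodextrin 3 and 4, and 6.75 and 6.80 on control 1 and 2. Slc12a8 (0.42) and Nov (0.50) followed. Gstz1 was nearest to Adam8 (0.047), Slc9a3r2 (0.052) and Josd1 (0.054), and Fah to Gpr133 (0.016), Hyal3 (0.052) and Zfp963 (0.082). For Tat the nearest were Hrsp12 (0.094), Eif5b (0.14) and Cnot8 (0.15), each highest on control 2. For Hgd, near background, they were Kcmf1 (0.019), Mettl9 (0.023) and Rab36 (0.025), genes that hardly varied. No enzyme of the 5 was among the 3 nearest genes of another. With 4 arrays many genes can share a pattern, so the distances only describe these libraries.

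**Figure D5:**
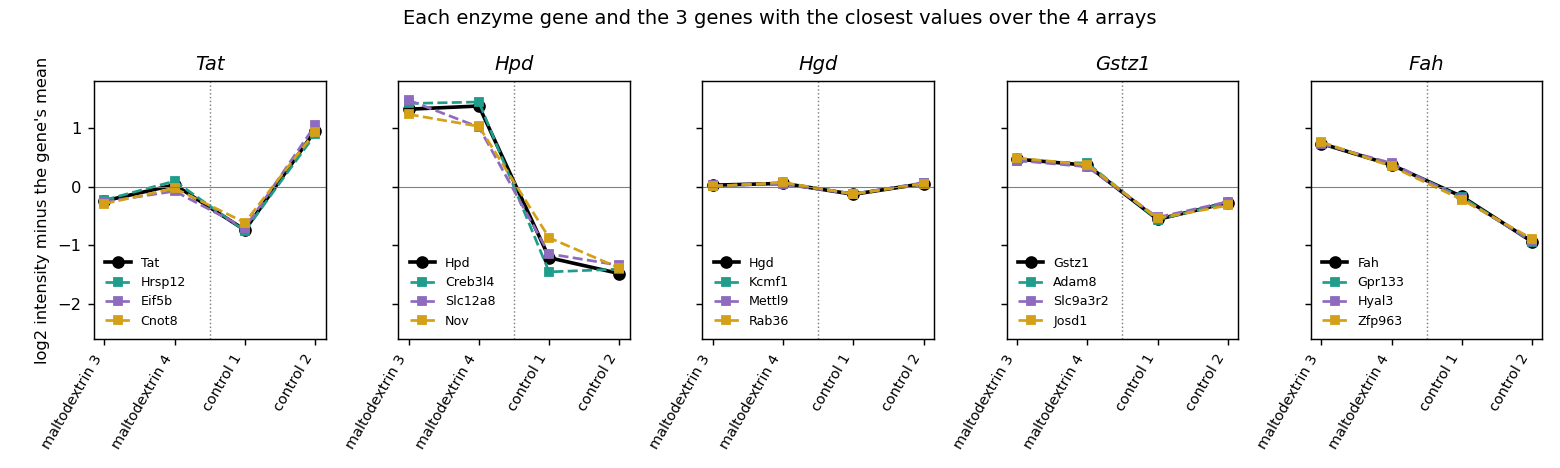
Log2 intensity minus the gene's own mean over the 4 arrays, for each enzyme gene (black) and the 3 genes closest to it (dashed), on maltodextrin 3, maltodextrin 4, control 1 and control 2. Hpd and its neighbours fall off sharply between the maltodextrin and control arrays, Fah and its neighbours have control 2 lowest, and Tat and its neighbours have control 2 highest.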

How the data were processed

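RNA of 2 maltodextrin and 2 control colon samples, grouped by their labels, was measured on 1 array each. The authors' deposited value table holds log2 intensities, and the submitters' processing notes name Partek 6.6. How probes were corrected, normalized and summarized is not given in the sources used here. Per the file headers, the authors' deposited table of comparisons adds a ratio and p-values for every probe set. On the log2 scale these ratios matched differences between group means to within 8.68e-05, and the p-values matched an equal-variance test, here called the methods' t-test, to within 0.000639.

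The 32202 probe sets with a symbol were fitted with limma 3.58.1 in R 4.3.3 (lmFit and eBayes, two-sided, Benjamini-Hochberg), maltodextrin minus control, leaving 2 residual degrees of freedom, to which the moderation added 2.62. The script was tested on simulated data. An exact permutation test of 2 against 2 cannot go below a two-sided p of 0.333, so none was made. A list gene was taken by its probe set with the highest mean. The genes and the 20 lists were chosen with earlier results of these data known. Named list genes were up to 4 with the largest differences at the nominal criterion and textbook neighbours of the steps. The 3 genes nearest to each enzyme were also named. Qdpr, Tdo2, Fga, Alb, Trf, Ttr, Cps1, Cyp2e1, Cd163, Hoxb13, Hoxd13, Hnf4a, Nr3c1, Fkbp5, Tsc22d3 and the goblet cell markers were named after their values were seen. Marker lists are given mainly as counts, and some genes of the tetrahydrobiopterin, liver transcription factor and hepatocyte lists are not reported here and were taken out of those lists' counts, and of the count of neighbouring genes, after the values were seen. The alternatives tried were leaving out each array, quantile normalization of the deposited values, median centring and dropping probe sets with a mean log2 under 5. Further ones were keeping rows without a symbol, eBayes with trend and robust, and the methods' t-test. A fold of at least 2, probe sets matching 1 place, and gene means were also tried. Quantile normalization is called renewed or applied again above, although whether the deposited values already had it is not stated. The number of arrays limits the precision.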

Additional observations from a re-analysis of the deposited data

How the results depend on the processing

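No paired analysis was possible because the labels number the arrays 1 to 4 through both groups. With 1 array left out, the lone array of a group is assumed to vary like the other group. The differences then ranged from -1.06 to 0.63 for Tat, 2.56 to 2.83 for Hpd, -0.01 to 0.17 for Hgd, 0.69 to 0.98 for Gstz1 and 0.72 to 1.49 for Fah, and the number of the 5 genes at the nominal criterion from 1 to 4. Counts ranged from 2 to 8 for neighbouring pathway genes, 4 to 18 for other amino acid breakdown, 1288 to 6894 for all probe sets, and 0 to 905 for probe sets past an adjusted p of 0.05 by limma. Without control 2, lower calls (3903) outnumbered higher ones (2991). Quantile normalization of the deposited values gave 2.54 for Hpd, 0.64 for Gstz1 and 0.24 for Hgd, and 11 of the other amino acid breakdown genes. The methods' t-test gave 2 neighbouring pathway genes and 1615 probe sets, and a fold of at least 2 gave 2, 3 of the other breakdown genes and 1394. The causes were not tested, beyond the stricter fold and the fewer samples themselves. Centring the arrays gave 3445 higher and 885 lower, beside 2739 and 1148. In the settings with all 4 arrays each of the 5 enzymes kept its direction.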
